A study of Mus musculus with 16 samples.

Results

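The study had 26439 regions of open chromatin that were accessible in bone marrow-derived macrophages under all 4 of its conditions. Of these, 64 (0.242%) ranked at least 10 percentile points higher with the synthetic LXR agonist T0901317 (T0) than without it. They did so both in resting cells and in cells stimulated with lipopolysaccharide (LPS). They were chosen from the peak lists by a rule on rank. Overlapping peaks of the 4 lists were merged into 37648 regions, the 26439 with a peak in every list were kept, and the highest peak score of each region in a list was turned into a percentile, the percent of that list's peaks with the same or a lower score. The 64 regions rose by at least 10 percentile points from vehicle to T0 and by at least 10 points from LPS to T0 with LPS. The ranks therefore chose the regions, and they are given below as a description. Raised here means raised by this rule.

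The assay was ATAC-seq, which reads out where Tn5 transposase can insert sequencing adaptors, and the cells were macrophages grown from the marrow of young adult female C57BL/6J mice. On day 8 of culture, cells received DMSO (Veh) or 500 nM T0 for 3 hr and were harvested, or were treated in the same way and then stimulated through TLR4 with 10 ng/mL LPS during another 2 hr (LPS and T0-LPS). Each of the 4 groups had 4 libraries of 50000 cells, which the authors pooled into 1 peak list, so no value below has a replicate and no test across samples was possible. The lists held 35551 (Veh), 29839 (T0), 33181 (LPS) and 31085 (T0-LPS) peaks, limited by the authors to enhancers marked by H3K27ac or H3K4me2 in other macrophage data. All 4 groups shared genotype and culture, and groups with LPS were also cultured longer than groups without it. Start sites of 9 or 10 of 10 macrophage marker genes held a peak in each list, against 0 of 4 T cell, 1 of 3 B cell, 1 of 4 neutrophil, 1 of 2 endothelial and 0 to 2 of 3 fibroblast markers.

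Liver X receptors (LXR) belong to the nuclear receptor family, are bound by oxysterols and act as a heterodimer with the retinoid X receptor. This heterodimer binds a direct repeat of the nuclear receptor half-site AGGTCA with 4 bases between the copies, called DR4. In macrophages its well-known targets export cholesterol (Abca1, Abcg1), carry or hydrolyse lipid (Apoe, Lpl), and make and desaturate fatty acids (Srebf1, Scd1, Scd2).

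DR4 was searched on both strands as a pair of half-sites with up to 2 mismatches in their 12 fixed bases. It was found in 10 of the 64 raised regions (15.6%, Wilson 95% interval 8.71 to 26.4%) when whole regions were scanned, a scan chosen after seeing the data, and in 5.03% of other shared regions (interval 4.77 to 5.30%). Of these 10 regions, 7 overlapped no annotated untranslated region. Their repeats are printed because they let the match to the LXR element be read directly, with the half-sites in capitals, 20 flanking bases on each side, and the strand on which the repeat reads forward (GRCm38). The regions at Arhgef3, Abca1, Rnf145 and Lpl were named by rank or as LXR target genes, and those at Rnf7, AB124611 and Copb1 were added after their values were seen.

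Arhgef3 intron, chr14:27123697-27123752, minus strand: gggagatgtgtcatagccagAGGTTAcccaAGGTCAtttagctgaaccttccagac
Abca1 upstream, chr4:53218184-53218239, minus strand: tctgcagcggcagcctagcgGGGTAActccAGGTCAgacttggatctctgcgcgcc
Rnf145 intron, chr11:44520450-44520505, minus strand: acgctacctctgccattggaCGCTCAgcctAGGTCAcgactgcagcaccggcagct
Lpl downstream, chr8:68954229-68954284, plus strand: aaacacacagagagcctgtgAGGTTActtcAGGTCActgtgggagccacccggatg
AB124611 intron, chr9:21528041-21528096, plus strand: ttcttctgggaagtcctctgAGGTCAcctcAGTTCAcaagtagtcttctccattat
Rnf7 upstream, chr9:96483876-96483931, plus strand: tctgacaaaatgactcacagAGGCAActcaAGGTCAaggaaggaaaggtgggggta
Copb1 downstream, chr7:114194353-114194408, minus strand: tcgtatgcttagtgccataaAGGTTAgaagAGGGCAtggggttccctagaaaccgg

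With positions counted from 1 at the 5′ end of the repeat, the Arhgef3 and Lpl repeats each differed from a perfect pair at a single base, C5T in both. The AB124611 repeat also had 1 mismatch, G13T. The Abca1 repeat had A1G and C5A, the Rnf145 repeat A1C and G3C, the Rnf7 repeat T4C and C5A, and the Copb1 repeat C5T and T14G. In 5 of these 7 repeats the second copy was a perfect half-site. The repeat lay inside a peak of all 4 lists in 6 of the 7 regions. The exception was Abca1, where the peaks of the T0 and T0-LPS lists covered the repeat and those of the Veh and LPS lists did not. A match is a description of the sequence and not a measured binding site.

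Ranks with T0 were higher by a median of 12.9 points in resting cells (10.05 to 39.5) and of 13.9 points in stimulated cells (10.07 to 71.0). Across the 64 regions the median percentile was 44.2 and 56.99 in Veh and T0, and 36.3 and 50.4 in LPS and T0-LPS. Most rises were modest, since 27 regions rose by at least 12 points in both pairs, 6 by 15, 3 by 20 and 1 by 30. In 50 of the 64 regions both T0 lists ranked above both lists without T0. The lowest rank of the 4 was in LPS for 45 regions and in Veh for the other 19, and the highest was in T0 for 35 and in T0-LPS for 29.

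The background of the rule was low for rises and high for falls. T0 raised 513 of the 26439 shared regions by at least 10 points against Veh (1.94%), and T0-LPS raised 1932 against LPS (7.31%). Falls of at least 10 points numbered 8695 (32.9%) against Veh, 4828 (18.3%) against LPS, and 2263 (8.56%) in both pairs. Raised regions were thus 2.75% of the regions that moved by at least 10 points in the same direction in both pairs. The median shared region fell by 5.28 points with T0 and by 1.56 points with T0-LPS. The percentile counts all peaks of a list, and the lists with T0 held fewer peaks. When the percentile was taken among the shared regions alone, these medians were 0.159 and 0.0756, and 661 regions were raised in both pairs and 656 lowered (50.2% raised). Of the 64 regions, 60 were also raised on that scale.

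**Figure D1:**
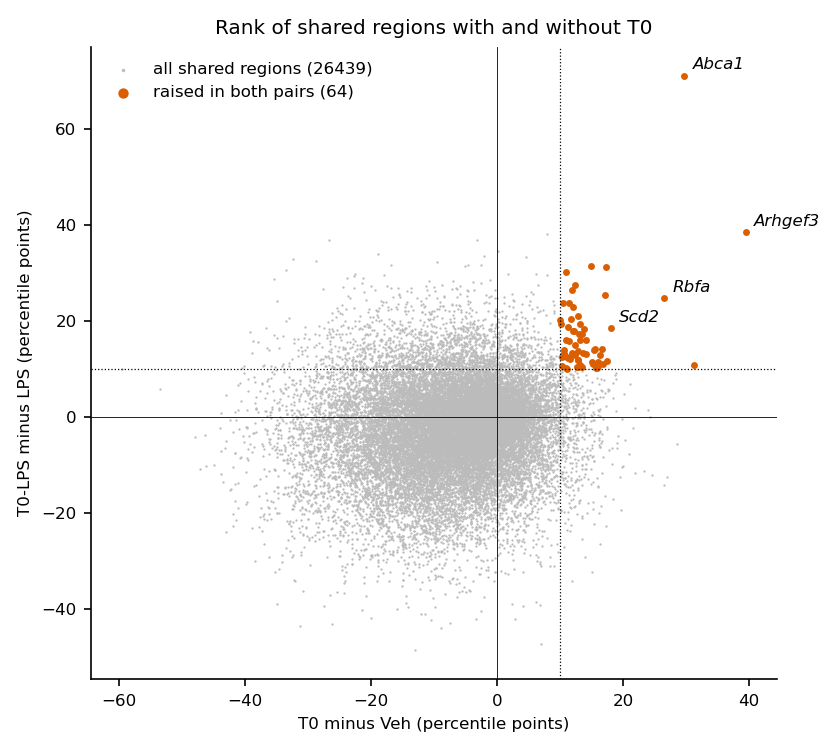
Difference in rank between T0 and Veh (x axis) and between T0-LPS and LPS (y axis), in percentile points, for all 26439 shared regions (gray) and the 64 raised in both pairs (orange). Dotted lines mark the threshold of 10 points, and the regions at Abca1 and Arhgef3 lie apart from the other 62.

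The region with the highest joint rise lay in an intron of Arhgef3, 8831 bp from the start site of this RhoA guanine nucleotide exchange factor (chromosome 14, 27123496 to 27123965). It was at percentile 17.7 and 57.2 in Veh and T0, and 45.8 and 84.3 in LPS and T0-LPS. Both LPS and T0 lists ranked it above Veh, and the list with both agents was the highest. Its peak was 298 and 370 bp wide in Veh and T0, and 397 and 470 bp in LPS and T0-LPS, so the peak with both agents was the widest and the Veh peak the narrowest. The other 8 shared regions within 100 kb of an Arhgef3 start site did not pass the rule, and the one 168 bp from a start site was at 55.7, 40.5, 30.1 and 17.6 in the same order of lists.

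The region 58130 bp upstream of Abca1, which encodes the transporter that loads cellular cholesterol onto apolipoprotein A-I, had the largest rise in stimulated cells (chromosome 4, 53217564 to 53218487, intergenic). Its percentile was 16.2 and 45.9 in Veh and T0, and 1.43 and 72.4 in LPS and T0-LPS. LPS alone left it among the weakest peaks of its list, with a score of 69, whereas the score was 476 in T0-LPS. The Veh, LPS and T0 lists each had a peak on its left side, of 257, 284 and 370 bp. The T0 list had another peak of score 103 on the right side (53218149 to 53218460), which held the repeat shown above, and in T0-LPS a single peak of 924 bp spanned both sides.

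Another raised region lay in an intron of Abca1, 43827 bp downstream of the start (chromosome 4, 53115895 to 53116241). It was at percentile 53.0 and 65.9 in Veh and T0, and 40.1 and 51.9 in LPS and T0-LPS, so T0-LPS stood close to Veh. Abca1 had 14 shared regions within 100 kb, and 6 of them ranked higher in both pairs. The region 141 bp upstream of the start was at 75.7, 74.2, 83.4 and 85.7 and changed by less than 3 points in either pair. An intronic region 10048 bp downstream moved the other way, from 69.6 in Veh to 36.8 in T0 and from 68.6 in LPS to 44.9 in T0-LPS.

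Scd2 encodes a stearoyl-CoA desaturase, which makes monounsaturated fatty acids, and had 2 raised regions. The one 26474 bp upstream (chromosome 19, 44266847 to 44267554, intergenic) was already strong, at percentile 67.0 in Veh and 70.6 in LPS, and was at 85.1 in T0 and 89.1 in T0-LPS. The other lay 20910 bp downstream of the Scd2 start, nearest to Scd4 and also within 100 kb of Scd1, in an intron of AC123853.1 (44314345 to 44314824). It was at 55.3 and 67.7 in Veh and T0, and 39.1 and 66.6 in LPS and T0-LPS, so the lists with T0 were close to each other and LPS stood lowest. These 2 regions, 47384 bp apart, were the only pair of raised regions within 100 kb of each other. A region 9435 bp upstream of Scd2 missed the rule in resting cells alone, at 83.6, 92.2, 84.0 and 96.0.

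Srebf1 encodes SREBP-1, the factor that drives fatty acid synthesis genes. Its raised region lay in an intron, 10054 bp from the nearest start (chromosome 11, 60210338 to 60210762), at percentile 54.5 and 64.9 in Veh and T0, and 44.5 and 68.2 in LPS and T0-LPS. The 2 lists with T0 were again the highest and LPS the lowest. The region 2397 bp upstream of that start rose from 47.7 to 64.1 in resting cells, but from 47.0 to only 52.6 in stimulated cells, and so did not pass the rule.

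Lpl encodes lipoprotein lipase, which hydrolyses triglyceride of lipoproteins. The raised region lay 73664 bp downstream of its start (chromosome 8, 68953893 to 68954417, intergenic) and was at percentile 62.7 and 73.6 in Veh and T0, and 60.2 and 76.1 in LPS and T0-LPS. The rises were of similar size from similar starting ranks. The region next to it, 71477 bp downstream, went from 28.4 to 40.2 and from 16.4 to 25.3. At the Lpl start itself, T0 ranked below Veh (49.6 and 58.8) and T0-LPS below LPS (54.1 and 59.6).

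**Figure D2:**
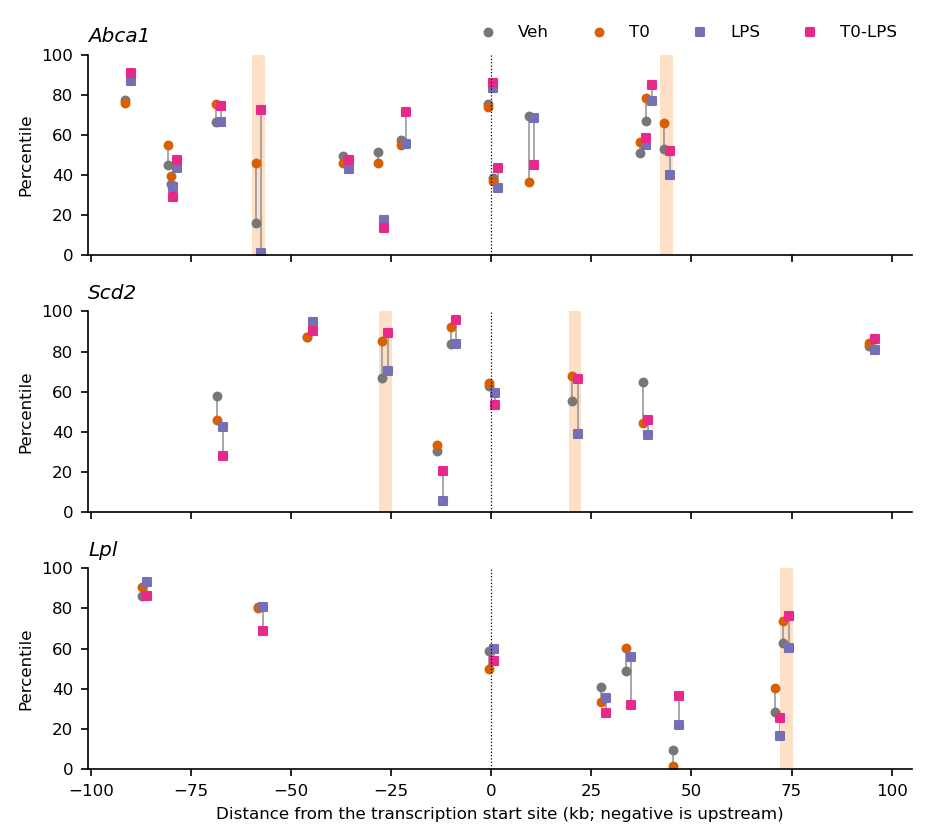
Percentile of every shared region within 100 kb of the start of Abca1, Scd2 and Lpl, plotted by distance in kb (negative is upstream), with lines joining Veh to T0 (circles) and LPS to T0-LPS (squares, drawn slightly to the right). Shaded columns, which are not to scale in width, mark the raised regions, all of them over 20 kb from the start, while the region nearest each start rose by less than 3 points or fell.

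Of the 23 LXR target genes looked up, 5 (Abca1, Lpl, Scd1, Scd2 and Srebf1) had a raised region within 100 kb and 18 did not. The regions were 6 of the 120 shared regions near these genes (5.00%, interval 2.31 to 10.5%), against 0.242% of all shared regions (0.190 to 0.309%). In the direction of change without a threshold, 30 of the 120 (25%) ranked higher with T0 in both pairs, against 10.8% of all shared regions. Lowered in both pairs were 13 of the 120 (10.8%), against 8.56% of all. The median differences of the 120 were -3.60 points with T0 and 1.74 points with T0-LPS, against -5.28 and -1.56 overall. No raised region lay within 10 kb of an LXR target start. On the scale of shared regions alone, 20 of the 120 (16.7%, interval 11.1 to 24.3%) were raised, against 2.50% of all, and 9 of the 23 genes had one, with Abcg1, Acaca, Arl4c and Nr1h3 added.

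The other gene lists held few raised regions. Genes of sterol synthesis and uptake, the targets of SREBP2, had 0 of 66 nearby shared regions (upper limit of the interval 5.50%). Inflammatory genes had 1 of 190 (0.526%), near Cxcl10, which encodes a chemokine. Nuclear receptors and corepressors had 1 of 121 (0.826%), near Rara, and genes of lysosomes and lipid handling 1 of 131 (0.763%). Housekeeping genes had 2 of 161 (1.24%, interval 0.341 to 4.42%), one of them near Rpl13a, a ribosomal protein gene. This housekeeping interval lay above the 0.242% of all shared regions and overlapped the LXR target interval of 2.31 to 10.5%. The intervals of these lists all included the housekeeping share, and at 0 to 2 regions each a difference between them was not detectable. On the scale of shared regions alone, raised regions lay near 9 of 30 inflammatory genes (8 of 190 regions, 4.21%, interval 2.15 to 8.09%). They lay near 5 of 15 nuclear receptor and corepressor genes (4.13% of regions, 1.78 to 9.31%) and 1 of 18 sterol genes (3.03%, 0.835 to 10.4%). All of these intervals included the 2.50% of all shared regions. No share over all genes was counted to set beside the gene counts. Genes of lysosomes and lipid handling stood at 6.87% of regions (interval 3.66 to 12.5%) and housekeeping genes at 4.97% (2.54 to 9.50%), both intervals above the 2.50% of all shared regions.

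**Figure D3:**
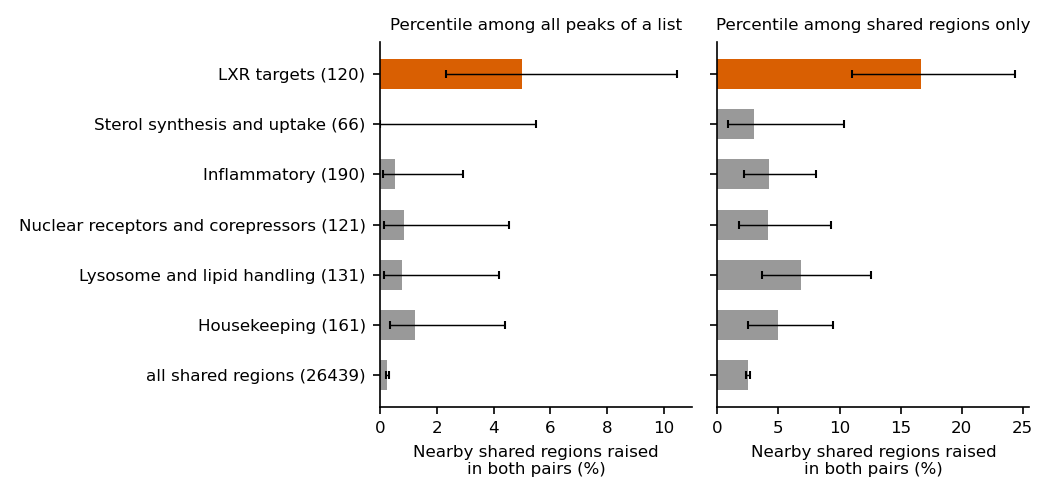
Percent of shared regions within 100 kb of the genes of each list that were raised in both pairs, with the number of nearby shared regions in brackets and Wilson 95% intervals that cover counting error only. LXR targets stood at 5.00% with the percentile among all peaks of a list (left) and at 16.7% with the percentile among shared regions (right), against 0.242% and 2.50% of all shared regions.

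Rnf145 encodes a ubiquitin ligase of the endoplasmic reticulum that takes part in sterol homeostasis, and was not on the lists. Its raised region lay in an intron, 869 bp downstream of the nearest annotated start (chromosome 11, 44519861 to 44520762). It was at percentile 38.2 and 55.4 in Veh and T0, and 24.1 and 49.5 in LPS and T0-LPS. Both lists without T0 held separate peaks on the left and right sides of the region, whereas the T0 and T0-LPS lists each held a single peak, of 764 and 766 bp. A neighbouring region, 2 bp from another annotated start of the gene, fell from 51.9 in Veh to 35.1 in T0 and was at 51.7 in LPS and 56.2 in T0-LPS.

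The remaining regions among the 15 with the largest rises lay near genes of varied function. Rbfa, which encodes a mitochondrial ribosome-binding factor, had a raised region 51 bp upstream of its start (chromosome 18, 80200508 to 80200910), at percentile 25.6 and 52.1 in Veh and T0, and 21.6 and 46.3 in LPS and T0-LPS. Sdc3, encoding the heparan sulfate proteoglycan syndecan-3, had one 4811 bp upstream (chromosome 4, 130787570 to 130787883), at 51.3, 68.6, 18.01 and 49.2 in the same order. In both regions LPS ranked lowest, but only at Sdc3 did T0-LPS stay below Veh.

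Among these 15, a further 5 lay within 1 kb of a start. Impa2, an inositol monophosphatase gene, had ranks of 34.3, 49.2, 19.5 and 50.9 in Veh, T0, LPS and T0-LPS. Eri1, encoding an exoribonuclease of histone mRNA decay, had 46.6, 60.7, 46.1 and 62.1. These Eri1 ranks are those of the strongest peak. Veh had a single peak there, and every other list had a left and a right peak. The right peak rose from 46.0 with LPS alone to 62.1 with both agents, whereas the left peak fell from 46.1 to 30.9. With T0 alone the left peak was at 18.1 and the right peak at 60.7. Impdh1, encoding an enzyme of guanine nucleotide synthesis, had 38.9, 52.5, 42.0 and 55.3. By the strongest peak, the pairs at Eri1 and Impdh1 ran almost in parallel, with little difference between cells with and without LPS. Qrich1 (56.4, 70.2, 54.9 and 73.1) showed the same pattern, while at Foxb2, a forkhead factor gene, T0-LPS stayed just below Veh (23.3, 40.04, 8.35 and 22.5).

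Of the last 4 of the 15, which lay farther from a start, 3 are described. The region in an untranslated part of Scarb2, the gene of a lysosomal membrane protein, was nearest to the Nup54 start and within 100 kb of Cxcl10 (chromosome 5, 92441519 to 92441848), and was at 49.4, 65.0, 52.9 and 67.0. It also held a DR4. The regions nearest to Igsf8 (13.9, 27.4, 19.5 and 36.6) and Actbl2 (38.2, 51.4, 23.9 and 43.3) rose by 13 to 20 points in each pair. The Actbl2 region lay 310186 bp from that start, the nearest of a protein-coding gene.

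**Figure D4:**
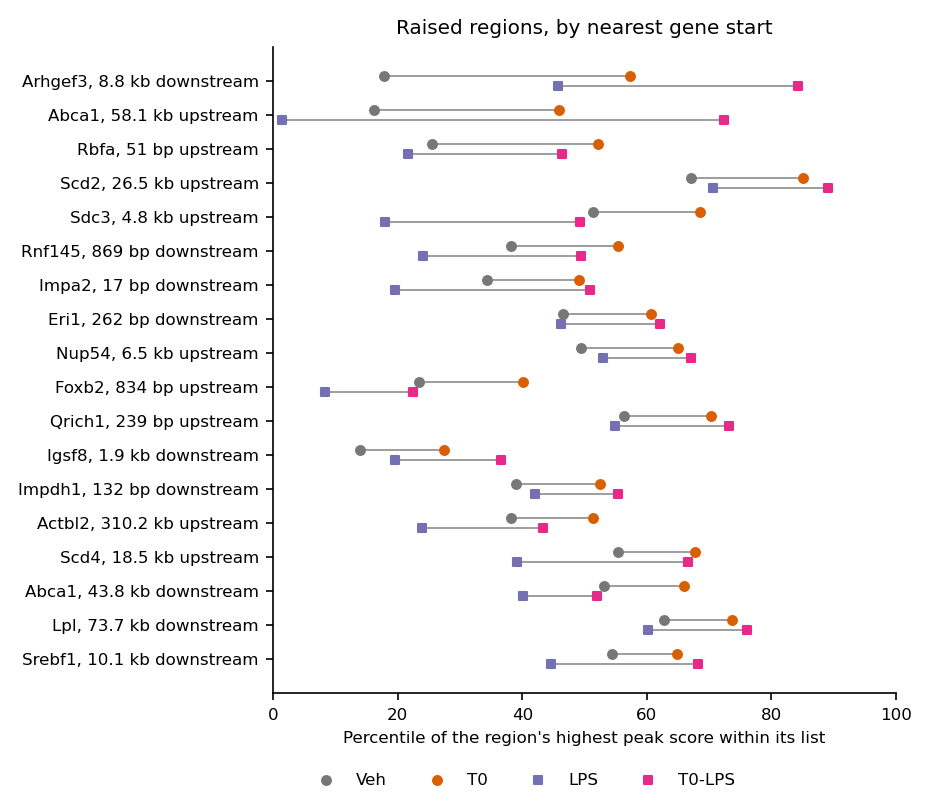
Percentile in the 4 lists for 14 of the 15 regions with the largest smaller difference and for the other 4 regions near LXR target genes, labelled by the nearest protein-coding gene and the distance to its start. Lines join Veh to T0 (circles) and LPS to T0-LPS (squares), and the symbol with T0 is the right-hand end of every line because the rule required it.

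Ranks with LPS alone were lower than in Veh for most raised regions. Across all shared regions the median percentile was also lower in LPS than in Veh, at 59.4 against 62.5. Of the 33 raised regions farther than 1 kb from a start, 9 ranked at least 20 points lower in LPS than in Veh and 2 at least 20 points higher, whereas none of the 31 within 1 kb moved that far in either direction. Among all shared regions, 12.8% of those farther than 1 kb ranked at least 20 points lower in LPS and 4.17% higher, against 3.87% and 1.66% of those within 1 kb, so distal regions moved more often there as well. Median ranks of the distal regions were 38.2 and 56.4 in Veh and T0, and 23.9 and 40.4 in LPS and T0-LPS. Those of the regions near a start were 46.6, 57.8, 40.8 and 59.3. Both the Veh and the LPS rank served as baselines of the rule, so this is a description.

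The 9 regions were chosen for description after their values were seen. In 8 of them T0-LPS still ranked below Veh, by a margin that was small at Sdc3 and large at Umps and Jade1. The region in an intron of Itgb5, nearest to the Umps start, went from 63.4 in Veh and 74.5 in T0 to 6.40 in LPS and 18.9 in T0-LPS. The region in an intron of Jade1 was at 58.5, 69.8, 12.6 and 24.9. Rhoh had an intronic region at 54.1, 64.8, 15.6 and 28.7, and the region 33228 bp upstream of Trib1, a pseudokinase gene, was at 44.9, 55.5, 16.1 and 29.3. The exception was the region in an intron of Gm30382, with Adgrl2, 403235 bp away, as the nearest protein-coding gene. It was at 77.6, 88.5, 48.2 and 78.4, so T0-LPS regained the Veh rank. The other 4 were Sdc3, described above, and the regions nearest to Irf2bp2, Fam198b and D13Ertd608e, which were at 35.5, 52.3 and 27.1 in Veh and at 6.88, 22.5 and 6.23 in LPS.

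Raw scores went the same way as ranks in every raised region, although scores grow with the depth of a list. All 64 had a higher score in T0 than in Veh, against 3.65% of other shared regions, and in T0-LPS than in LPS, against 23.2%. These values come from the scores that chose the regions.

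Peak width did not enter the rule, but it comes from the same pooled reads and peak calls as the scores that chose the regions. The width shares are therefore a description and are not independent of the rule. The strongest peak was wider in T0 than in Veh in 26 of 64 raised regions (40.6%, interval 29.5 to 52.9%), against 11.7% of other shared regions (11.3 to 12.1%) and 6.19% of those lowered in both pairs. It was wider in T0-LPS than in LPS in 41 (64.1%, interval 51.8 to 74.7%), against 35.2% and 24.5%. Most raised regions were therefore narrower in T0 than in Veh while ranking higher, with a median change of -9.5 bp, against -49 bp in other shared regions.

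Raised regions lay on 20 chromosomes, with at most 6 on any one. Within 1 kb of a start lay 31 (48.4%, interval 36.6 to 60.4%), against 43.0% of other shared regions, a difference of 5.41 points with a Newcombe 95% interval of -6.41 to 17.4. The difference was larger, with an interval above 0, with the percentile among shared regions (11.1 points, 7.24 to 14.9), with a threshold of 5 points (11.9, 7.14 to 16.6) and with summed scores (17.9, 7.66 to 27.3). Regions lowered in both pairs lay there less often, in 25.5% (23.7 to 27.3%). By the midpoint, 30 raised regions lay in introns, 20 between genes, 9 in untranslated regions and 5 in other exons. Abca1 was the nearest gene of 2 raised regions, and no other gene was nearest to more than 1.

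Shared regions close to the raised ones had the median differences of all shared regions. Of the 64, 35 had a neighbouring shared region within 10 kb, 55 neighbours in all, whose median differences were -5.43 points with T0 and -1.90 points with T0-LPS, near the -5.28 and -1.56 of all shared regions. Both differences were positive in 11 of the 55 (20.0%), against 10.8% of all shared regions. Within 50000 bp, both were positive in 26 of 233 neighbours (11.2%), close to that share.

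Half-sites and DR4 were then counted in windows of equal length, 200 bp at the midpoint of the strongest T0 peak. DR4 was present in 5 of 64 raised regions (7.81%, interval 3.38 to 17.0%), in 1.83% of other shared regions (1.67 to 2.00%) and in 1.64% of regions lowered in both pairs. The difference from other shared regions was 5.98 points (Newcombe interval 1.55 to 15.2). With at most 1 mismatch the counts were 2 of 64 (3.13%) and 0.197%, and with up to 3 mismatches the interval of the difference reached below 0 (-0.141 to 20.3). Taken the other way, 10 of the 1335 shared regions with a DR4 anywhere were raised (0.749%, interval 0.407 to 1.37%), against 0.215% of those without (0.165 to 0.281%), so that nearly all regions with DR4 were not raised by this rule.

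Direct repeats with other spacers were counted for comparison. With 0 to 8 bases between half-sites and up to 2 mismatches, the share of raised regions was 7.81% at 4 bases, 4.69% at 2 bases, 3.13% at 0 bases and at most 1.56% at the others. In other shared regions the shares lay between 1.601% and 2.46% for every spacer. At 4 bases alone did the interval of the raised regions stay above the value of the other shared regions.

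**Figure D5:**
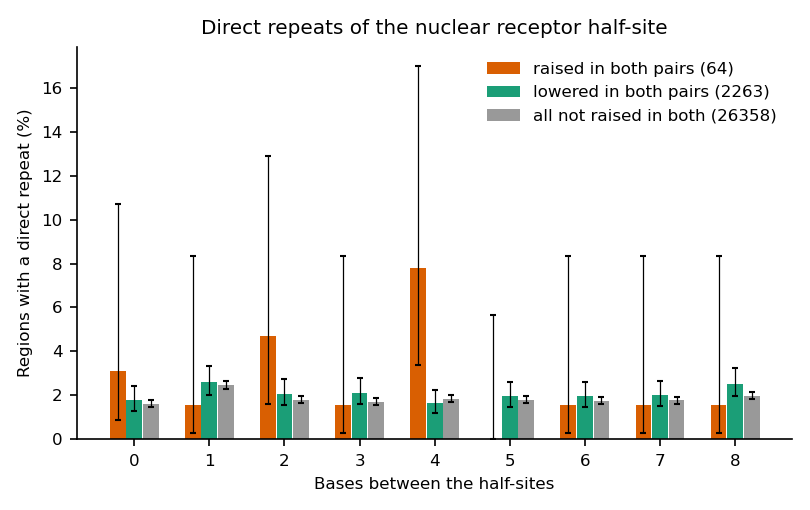
Percent of regions with a direct repeat of the half-site, with up to 2 mismatches in a 200 bp window, by the number of bases between the copies, for regions raised in both pairs (64), lowered in both pairs (2263) and all not raised in both (26358, which include the lowered). Error bars are Wilson 95% intervals, and the raised regions stood at 7.81% for a spacer of 4 bases against 1.83% of the regions not raised.

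The other raised regions with DR4 rose by 10.2 to 13.0 points in the pair with the smaller rise. Rnf7, the gene of a RING subunit of cullin ubiquitin ligases, had its region 5185 bp upstream at percentile 26.8 and 39.7 in Veh and T0 and at 40.5 and 54.3 in LPS and T0-LPS. The region in an intron of AB124611 was at 44.1, 56.4, 42.1 and 57.1, with nearly the same ranks in resting and in stimulated cells. Copb1 encodes a subunit of the COPI coat, and the region 60232 bp downstream of its start was at 18.2, 30.1, 12.4 and 38.7, its larger rise being in stimulated cells. The regions at the starts of Rsad1 (51.5, 64.5, 39.4 and 56.5) and Heca (44.9, 55.9, 36.7 and 46.9) completed the 10.

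DR4 was found both near to and far from start sites. In whole regions it was present in 4 of 31 raised regions within 1 kb of a start (12.9%, interval 5.13 to 28.9%) and in 6 of 33 farther away (18.2%, interval 8.61 to 34.4%), against 4.68% and 5.29% of other shared regions. Of the 15 regions with the largest rises 4 held it, and of the other 49 regions 6. Per 100 kb of sequence, raised regions had 30.2 regions with DR4 and other shared regions 9.48, at mean lengths of 518 and 530 bp.

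Single half-sites were found in 13 of 64 windows (20.3%, interval 12.3 to 31.7%), against 11.6% of other shared regions, a difference of 8.69 points (interval 0.639 to 20.1). That interval included 0 in a 400 bp window (-3.97 to 17.2), with whole regions (-5.11 to 17.1), with summed scores (-3.20 to 11.1) and with peaks of score 100 or more only (-1.50 to 17.1).

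Motifs of factors that shape macrophage enhancers were also counted. PU.1 (GAGGAAGT), the lineage factor of macrophages, was found in 1 of 64 windows (1.56%), against 8.95% of other shared regions, a difference of -7.39 points (interval -8.72 to -0.607). AP-1 (TGANTCA) was found in 6 (9.38%) against 17.3%, with an interval of the difference from -12.9 to 1.71. That interval lay below 0 with the percentile among shared regions (-6.18 to -0.856) and with a threshold of 5 points (-8.28 to -2.10). It also did so in a 400 bp window (-16.4 to -0.0184), and it included 0 in the other settings that gave an interval. NF-kB was found in 1 (1.56%) against 3.55% (-3.29 to 4.79), and CTCF in 0 of 64 (upper limit 5.66%) against 0.759%.

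Among the other motifs, the GC box (GGGCGG) was found in 27 windows (42.2%) against 28.8%, a difference of 13.4 points (interval 2.05 to 25.6), and the E-box CACGTG in 8 (12.5%) against 5.57%, a difference of 6.93 points (interval 0.8999 to 17.2). C/EBP (TTGCNNAA) was found in 10 (15.6%) against 10.5%, and CCAAT in 15 (23.4%) against 23.7%. The sterol element (TCACNCCAC), CRE and IRF were found in 1 window each (1.56%), against 0.865%, 1.32% and 3.27%. Of these, only the intervals for GC box and E-box excluded 0. Median GC content was 66.0% in raised regions near a start and 48.5% in the others, against 64.5% and 49.0% of other shared regions of the same kind. In all, 13 motifs were compared, and the intervals were not widened for that number.

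The T0 and Veh lists share no library with the T0-LPS and LPS lists, and the overlap of their rises is given as a description, since both differences chose the regions. Of the 513 regions raised by T0 without LPS, 64 also rose with LPS (12.5%), against 7.21% of the shared regions that T0 did not raise. A fall of at least 10 points with LPS was seen in 103 of the 513 (20.1%), near the 18.3% of all shared regions. The median difference of the 513 with LPS was -0.460 points, against -1.58 in the rest. By LPS rank, the shares were 31.1% and 20.6% in the lowest 20 percentiles, 15.1% and 12.3% from 20 to 40, and 12.7% and 9.20% from 40 to 60. From 60 to 80 the order turned, at 3.01% and 4.10%, and above 80 a single region of 27 rose in both pairs (3.70%), against 0.107%.

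The 49 regions outside the first 15 rose by 10.05 to 13.2 points in the pair with the smaller rise. The 3 named here were chosen after their values were seen. The region 12320 bp downstream of Dppa3 (chromosome 6, 122638415 to 122639046) had the second largest rise in resting cells, from 25.4 to 56.7, but went only from 16.4 to 27.2 in stimulated cells. The region nearest to Mrps23, a gene of the mitochondrial ribosome, was the strongest of the 64 in every list, at 81.7, 92.1, 83.6 and 94.2. The weakest in Veh lay in an intron of Macf1, which encodes a linker of actin and microtubules, at 6.48, 17.5, 9.67 and 19.7.

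The threshold cut a continuous range. The 3 regions just inside were those nearest to Fam120a, with differences of 10.05 and 20.2 points, Macf1, with 11.1 and 10.07, and Serf1, with 10.2 and 19.4. The 3 just outside were nearest to Nav1, with 13.4 and 9.98 points, Arhgdib, with 20.8 and 9.92, and Dapk3, with 15.3 and 9.92. A threshold of 5 points gave 433 regions and one of 20 points gave 3, those at Arhgef3, Abca1 and Rbfa.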

How the data were processed

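ATAC-seq libraries (16, 4 per group) had been trimmed with cutadapt, aligned with Bowtie2 and cleared of PCR duplicates with samtools by the authors, who called peaks with MACS2 (q threshold 0.001, no model) on the 4 libraries of a group together and kept peaks at macrophage enhancers. Each deposited list gives a position and a score per peak, the authors' peak caller score, which grows with depth. It was therefore used as a rank within its list. The score column has no header, and its scale is not stated. The submitters' processing notes name mm10. No read numbers were analysed, so the depth per library is unknown.

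Peaks overlapping by at least 1 bp were merged over the 4 lists. Genes and start sites were those of the GENCODE vM21 basic annotation, sequence that of RefSeq's GRCm38.p6. Nearest genes and the distances to them used starts of protein-coding genes. Shares within 1 kb of a start used starts of all annotated genes. All 129656 peaks ended within GRCm38 chromosomes. Motifs were searched on both strands: half-site AGGTCA, AP-1 TGANTCA, PU.1 GAGGAAGT, CRE TGACGTCA, E-box CACGTG, C/EBP TTGCNNAA, CCAAT, GC box GGGCGG, sterol element TCACNCCAC, IRF, NF-kB and CTCF by their consensus. 17 windows had no sequence. Windows may hold several overlapping motifs.

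Named regions were the 15 with the largest smaller difference, all within 100 kb of an LXR target start, up to 5 per other gene list, the genes nearest to the most raised regions, and 3 on each side of the threshold. Some named regions are not reported here. Members and lists were chosen with earlier results of these data known. Wilson and Newcombe 95% intervals treat regions as independent and cover counting error only. Alternatives covered the percentile's reference, thresholds, overlap, score summary, windows and mismatches. Code was tested on simulated data with the percentile among shared regions only, which is not the reference that chose the raised regions. Python 3.11.15, numpy 2.4.6 and scipy 1.17.1 were used.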

Additional observations from a re-analysis of the deposited data

How the results depend on the processing

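No paired analysis was possible because each group was 1 pooled list. Of 9 results under the alternatives, 72 values stayed within their intervals or within 1.5 times the count, 16 moved and 0 changed sign where the interval had excluded 0. With the percentile among shared regions only, 661 regions were raised, the DR4 difference was 1.53 points, 9 LXR target genes had a raised region, and 19.5% of regions raised without LPS were also raised with it. With a threshold of 5 points the number was 433 and that share 23.5%. With a threshold of 20 points 3 regions were left, 1 LXR target gene had one, and the differences were 23.6 points for starts, 55.0 for half-sites, 31.5 for DR4, -17.3 for AP-1, -3.54 for NF-kB and -8.93 for PU.1, each resting on 3 regions. With summed scores the difference in regions near a start was 17.9 points. With a gene window of 10 kb, 0 LXR target genes had a raised region. Of the 64 regions, 60 stayed raised among shared regions, 58 with scores of at least 100 only, 49 with summed scores and 60 with 1 peak in each list. Weighting other shared regions to the starting ranks of the raised ones gave a DR4 difference of 5.83 points. The causes of these moves were not tested. Without replicates or read depth, no rise can be set against the spread between libraries.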
